A study of Mus musculus with 8 samples.

Results

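Ly6C-high inflammatory monocytes leave the bone marrow, enter tumours through the blood and mature there into macrophages, and a set of transcripts is abundant in them at arrival and declines as they mature. The 9 such genes described here are Ly6c2, Vcan, F13a1, Plac8, Chil3, Hp, Gda, Mgst1 and Ms4a4c. They were chosen by name, as genes known to mark freshly recruited monocytes, and not by their values. Earlier results of these data were known when they were chosen. Each was represented by the probe set that the platform annotation assigns to that symbol alone, or by the one with the highest mean where there were several. All 9 were found among 22180 genes, with means over the median of all probe sets, as had Ptprc and Itgam, which encode the CD45 and CD11b of the sort. How long a cell had been in the tumour was not measured, so "freshly recruited" is the genes' textbook meaning and not a property of these samples.

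RNA came from cells sorted by flow cytometry as CD45+ CD11b+ Ly6Chi from the tumours of 8 week old female C57BL/6 mice, 1 Affymetrix array per mouse. Both groups carried subcutaneous tumours grown for 14 days from the pancreatic cancer line 152, a single line made from tumours that arose spontaneously in KPC mice, whose alleles are KrasLSL-G12D/+ and Trp53LSL-R172H/+ with Pdx1-Cre. The irradiated group (4 mice) had its tumours treated with 20 Gy and the sham group (4 mice) had a sham treatment, and both were harvested 1 day later. The tumours grew under the skin and not in the pancreas, the labels name no engineered allele in the hosts, and the Pdx1 promoter of the Cre drives recombination in the pancreatic lineage from which the line came. Cells of both groups were gated on the protein that Ly6c2 encodes, so cells low in it were left out of both. The comparison of Ly6c2 is one within that gate and cannot show a change in the number of such cells.

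Circulating Ly6C-high monocytes depend on the chemokine receptor CCR2 to leave the marrow. In tumours they replenish the macrophage pool, lose Ly6C and gain complement, scavenger and phagocytic receptor genes. None of the 9 genes is exclusive to this cell. Chil3, Hp, Mgst1 and Plac8 are also transcribed in neutrophils or their marrow precursors, Vcan in fibroblasts, and F13a1 in megakaryocytes and some resident macrophages. Ly6c2 and Ms4a4c respond to interferon.

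Irradiated and sham mice did not differ detectably in any of the 9 genes, whereas single mice differed by up to 3.20-fold (Ly6c2). On the log2 scale on which all levels below are given, 5 members were higher and 4 lower in irradiated mice, with differences between −0.33 (Hp) and 0.21 (Ly6c2) and a median of 0.01, against a median of −0.03 over all genes. No member passed limma's adjusted threshold of 0.05, and the adjusted p ran from 0.827 to 0.998. The background was the same, with 0% of the 22180 genes called. At an unadjusted p under 0.05 limma passed 0 of the 9, against 6.07% of all genes, and the groups overlapped in all 9, against 3.68% of all genes without overlap. Among all genes the difference was above 0 for 42.2% and below 0 for 57.8%. For bulk RNA, fewer cells of a type and less RNA per cell cannot be told apart. P-values rest on how much mice of a group differ from one another, and the number of arrays limits their precision.

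The sequences immediately upstream of 5 members are shown because 4 of them varied together from mouse to mouse and Gda did not, as described below. All pairs among those 4 passed the adjusted threshold with Pearson's r, but none with Spearman's rho or without irradiated mouse 3. Chil3 also passed with Ly6c2, Plac8 and Ms4a4c but not with Vcan. Its window is not printed and held no match to the words searched. Each is the 250 bases before the most upstream RefSeq start site of the gene (GRCm38.p6), read 5′ to 3′ on the gene's strand. They lie at chr15:75111972-75112221 (minus strand) for Ly6c2, chr19:11407411-11407660 (plus) for Ms4a4c, chr5:100572206-100572455 (minus) for Plac8, chr13:89742513-89742762 (minus) for Vcan and chr19:21472662-21472911 (minus) for Gda. Capitals mark matches to 1 of 3 words searched on both strands.
Ly6c2: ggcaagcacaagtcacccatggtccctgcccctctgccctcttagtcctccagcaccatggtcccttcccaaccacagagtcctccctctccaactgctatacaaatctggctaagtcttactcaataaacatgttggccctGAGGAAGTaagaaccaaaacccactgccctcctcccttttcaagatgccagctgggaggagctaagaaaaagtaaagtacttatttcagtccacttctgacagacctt
Ms4a4c: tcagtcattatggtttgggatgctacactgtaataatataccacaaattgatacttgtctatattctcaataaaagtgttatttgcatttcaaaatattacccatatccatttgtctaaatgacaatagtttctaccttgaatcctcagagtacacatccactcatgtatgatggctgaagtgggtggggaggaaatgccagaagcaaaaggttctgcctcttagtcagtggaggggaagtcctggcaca
Plac8: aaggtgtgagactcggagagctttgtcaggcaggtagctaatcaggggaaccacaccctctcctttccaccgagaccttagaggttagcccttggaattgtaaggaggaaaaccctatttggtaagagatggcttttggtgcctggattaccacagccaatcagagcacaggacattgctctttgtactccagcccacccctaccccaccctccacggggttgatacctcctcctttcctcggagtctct
Vcan: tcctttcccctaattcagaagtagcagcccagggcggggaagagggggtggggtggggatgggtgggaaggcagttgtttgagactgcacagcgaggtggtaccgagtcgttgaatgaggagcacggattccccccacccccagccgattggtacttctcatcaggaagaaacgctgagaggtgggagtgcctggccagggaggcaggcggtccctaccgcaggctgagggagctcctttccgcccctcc
Gda: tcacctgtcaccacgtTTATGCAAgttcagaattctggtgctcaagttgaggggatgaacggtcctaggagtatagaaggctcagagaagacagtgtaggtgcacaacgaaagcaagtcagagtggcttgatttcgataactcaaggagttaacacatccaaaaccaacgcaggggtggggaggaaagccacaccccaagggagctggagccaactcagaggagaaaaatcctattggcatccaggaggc
The words were GAGGAAGT for PU.1, the master transcription factor of myeloid cells, TTNNGCAA for C/EBP factors, which act in monocytes and granulocytes, and GAAA, any 2 bases, GAAA for the interferon response element. In the same 250 bases, 2.44% of 32851 mouse promoters held the PU.1 word, 9.56% the C/EBP word and 2.98% the interferon word. Promoter entries existed for 8 members (12 windows, counting second start sites), and none was found for Hp. The Ly6c2 sequence held the PU.1 word 108 bases before its start, and the Gda sequence held the C/EBP word 234 bases before its start. The C/EBP word also stood 83 bases before the upstream start of Mgst1 and 12 bases before a second start of Plac8, whose window is not printed. The window of a second Ly6c2 start overlaps the printed one and held the PU.1 word 142 and 8 bases before that start. The interferon word was in 0 of the 12 windows. A match is a description of letters and no match says only that these letters are absent from the window.

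Ly6c2 encodes the GPI-anchored surface antigen Ly6C on which the cells were sorted. The level of Ly6c2, with each group's values in the order of mouse 1 to mouse 4 as throughout, was 11.41, 11.98, 11.79 and 11.03 in the sham group and 12.45, 11.88, 10.77 and 11.94 in the irradiated group. The irradiated group thus held both the highest mouse (1) and the lowest (3), and the sham mice lay between them. Group means were 11.55 ± 0.42 for sham and 11.76 ± 0.71 for irradiated (SD, n = 4 each). They differed by 0.21 ± 0.33 (SE; 95% interval −0.52 to 0.94), or 1.16-fold (0.698 to 1.91), and limma's adjusted p was 0.939. Left out in turn, irradiated mouse 1 brought it to −0.02 and irradiated mouse 3 to 0.54.

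Ms4a4c encodes a membrane protein with multiple membrane-spanning segments of the MS4A family. It stood at 9.47, 10.17, 9.79 and 9.70 in the sham group and 10.51, 10.20, 8.93 and 9.86 in the irradiated group. Irradiated mice 1 and 2 were the highest of all 8 and irradiated mouse 3 the lowest. The difference was 0.09 ± 0.30 (SE; 95% interval −0.57 to 0.75; adjusted p = 0.971 in limma), and it was −0.12 when irradiated mouse 1 was left out and 0.40 when irradiated mouse 3 was.

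Of the genes for secreted proteins, Vcan encodes versican, a large chondroitin sulphate proteoglycan of the extracellular matrix. Its level was 9.23, 10.16, 9.73 and 9.24 in the sham group and 10.00, 9.83, 8.83 and 10.17 in the irradiated group. Irradiated mouse 3 was the lowest, while irradiated mouse 4 and sham mouse 2 were almost level at the top. The difference was 0.12 ± 0.30 (SE; 95% interval −0.55 to 0.78; adjusted p = 0.961 in limma), and it moved between −0.04 without irradiated mouse 4 and 0.41 without irradiated mouse 3.

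F13a1 encodes the A subunit of coagulation factor XIII, the transglutaminase that cross-links fibrin. It stood at 9.26, 9.97, 9.83 and 9.44 in the sham group and 9.68, 9.43, 9.26 and 9.58 in the irradiated group. Sham mice 2 and 3 were the highest, and all irradiated mice lay inside the sham range or at its lower edge. The difference was −0.14 ± 0.17 (SE; 95% interval −0.51 to 0.23; adjusted p = 0.916 in limma).

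Chil3 encodes Ym1, a chitinase-like lectin. Sham mice were close together at 11.37, 11.54, 11.24 and 11.35, whereas irradiated mice were at 11.97, 11.35, 10.84 and 11.36. Irradiated mice 2 and 4 lay within the sham range, with irradiated mouse 1 above it and irradiated mouse 3 below it. The means were 11.37 ± 0.12 and 11.38 ± 0.46 (SD, n = 4 each), and the difference of 0.01 had a 95% interval of −0.44 to 0.45 (adjusted p = 0.998 in limma).

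Hp encodes haptoglobin, which binds free haemoglobin, and had the smallest p of the 9. It stood at 10.21, 10.69, 10.36 and 10.58 in the sham group and 10.69, 10.01, 9.86 and 9.96 in the irradiated group. Irradiated mice 2, 3 and 4 were below every sham mouse, and irradiated mouse 1 was level with the highest sham mouse. The difference was −0.33 ± 0.19 (SE; 95% interval −0.75 to 0.09), a fold of 0.797 (0.596 to 1.06). Its unadjusted p in limma was 0.111 and its adjusted p 0.827. Without irradiated mouse 1 it was −0.51, at an adjusted p of 0.782 in limma.

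Plac8 encodes a small cysteine-rich intracellular protein. It stood at 11.27, 11.65, 11.47 and 11.29 in the sham group and 11.74, 11.45, 10.66 and 11.43 in the irradiated group. Irradiated mouse 1 was the highest of all 8 and irradiated mouse 3 the lowest, and irradiated mice 2 and 4 lay within the sham range. The difference was −0.10 ± 0.21 (SE; 95% interval −0.56 to 0.36; adjusted p = 0.954 in limma), and it was 0.12 without irradiated mouse 3.

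Mgst1 encodes microsomal glutathione S-transferase, which conjugates glutathione to reactive compounds. It stood at 8.10, 8.62, 8.10 and 8.15 in the sham group and 8.61, 8.14, 8.27 and 7.92 in the irradiated group. One mouse of each group, sham 2 and irradiated 1, stood above the rest, and unlike in most other members the lowest mouse was irradiated 4. The difference was −0.01 ± 0.17 (SE; 95% interval −0.38 to 0.37; adjusted p = 0.996 in limma).

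Gda encodes guanine deaminase, which converts guanine to xanthine. It stood at 10.79, 10.65, 10.64 and 10.81 in the sham group and 10.76, 10.78, 10.86 and 10.84 in the irradiated group. Its 8 values spanned 0.22, or 1.16-fold, and its highest mouse was irradiated 3, the lowest mouse for 7 other members. The difference was 0.09 ± 0.09 (SE; 95% interval −0.12 to 0.29; adjusted p = 0.903 in limma).

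**Figure D1:**
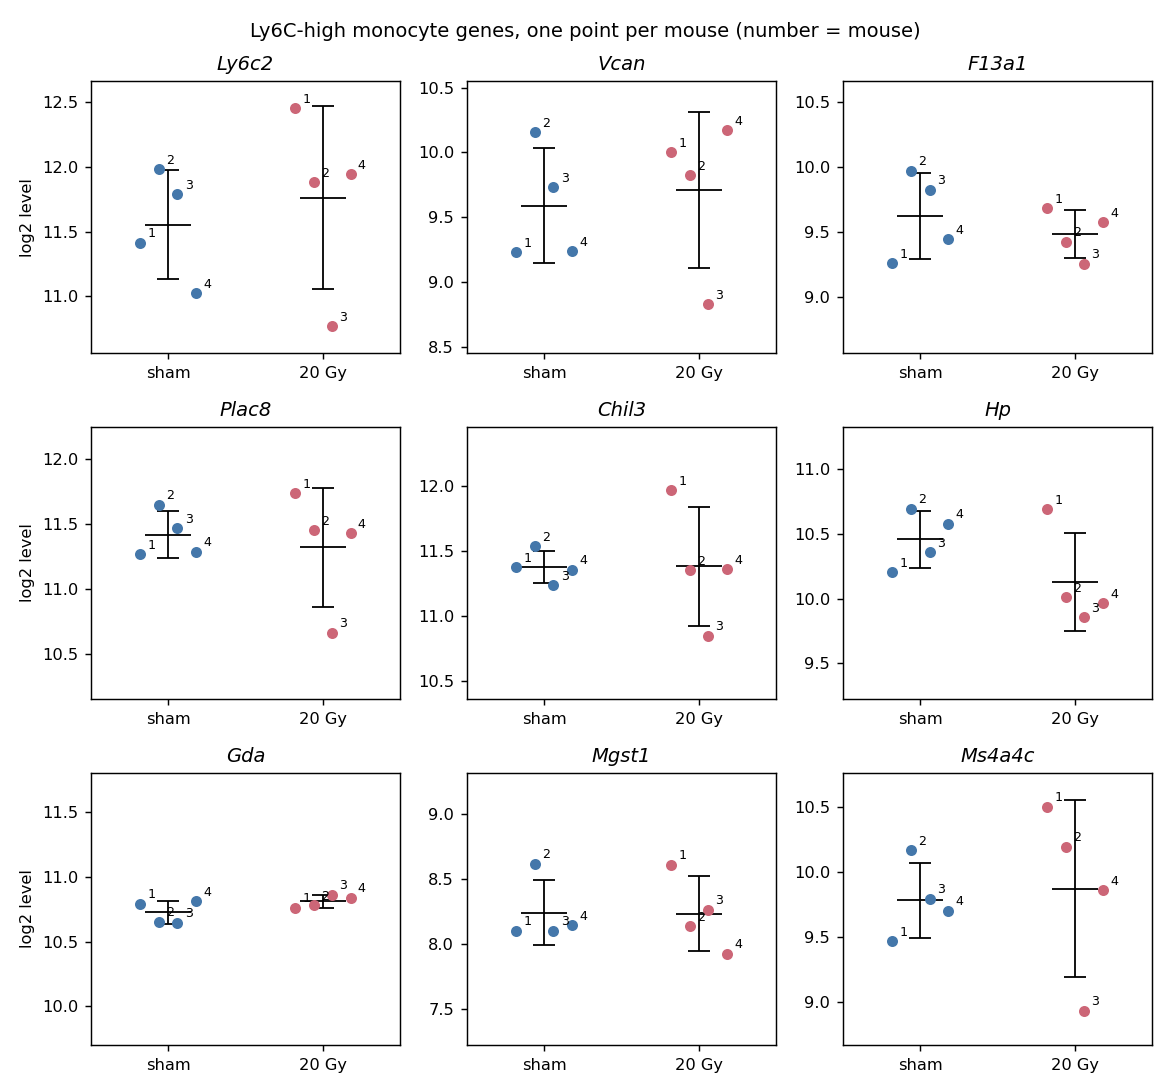
Log2 level of each of the 9 genes (1 panel each, vertical axis of the same span) in the 4 sham and 4 irradiated mice; points are mice and bars are the mean ± SD. The groups overlapped in every panel, and irradiated mouse 3 was the lowest point for 7 genes.

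**Figure D2:**
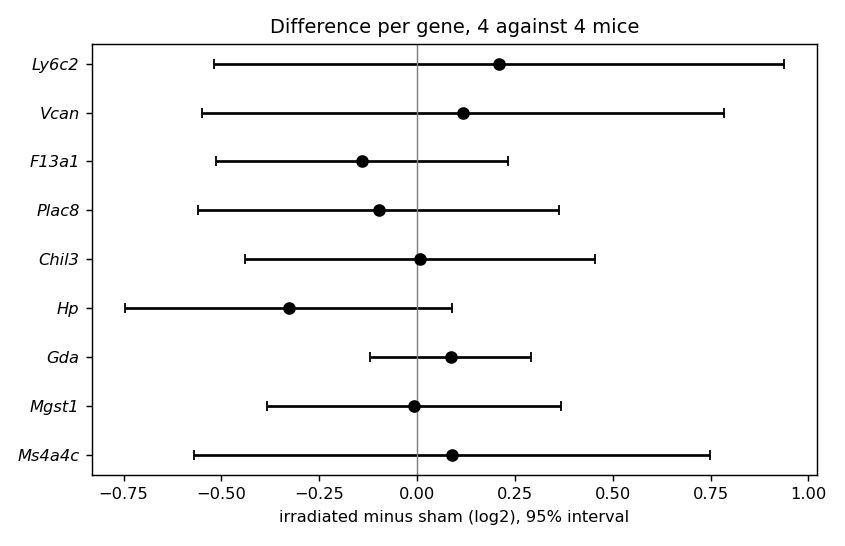
Irradiated minus sham difference of each of the 9 genes on the log2 scale, with its 95% interval from limma. Every interval includes 0, and they differ in width from Gda (−0.12 to 0.29) to Ly6c2 (−0.52 to 0.94).

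The members differed in how widely they varied among mice. The range over the 8 arrays was 1.68 for Ly6c2, 1.58 for Ms4a4c, 1.34 for Vcan, 1.12 for Chil3 and 1.08 for Plac8, which placed them at the 97.6, 97.1, 95.2, 91.8 and 90.6 percentiles of the ranges of all genes, whose median was 0.58. Hp (0.84), F13a1 (0.72) and Mgst1 (0.70) lay at the 79.7, 68.1 and 65.8 percentiles, and Gda lay at the 2.03 percentile. The SD was larger in irradiated than in sham mice for 7 members, all but F13a1 and Gda, against 47.1% of all genes; this difference in spread was not tested. Between irradiated mice 1 and 3 alone, Ly6c2 differed 3.20-fold, Ms4a4c 2.98-fold, Vcan 2.26-fold, Chil3 2.18-fold, Plac8 2.11-fold and Hp 1.78-fold. F13a1 differed 1.34-fold and Mgst1 1.27-fold in the same direction, and Gda by −0.10 on the log2 scale.

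Irradiated mouse 3 had less of most of these transcripts. It was below all 4 sham mice for 7 members, against 24.4% of all genes, the exceptions being Gda and Mgst1. Irradiated mouse 1 was above all sham mice for 4 members (Ly6c2, Plac8, Chil3 and Ms4a4c), against 15.2% of all genes. Sham mouse 2 was the highest of the 8 for F13a1, Hp and Mgst1. The mean log2 level of the 9 genes was 10.12, 10.60, 10.33 and 10.18 in the sham group and 10.71, 10.34, 9.81 and 10.34 in the irradiated group, so that the irradiated mice enclosed the sham range at both ends.

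**Figure D3:**
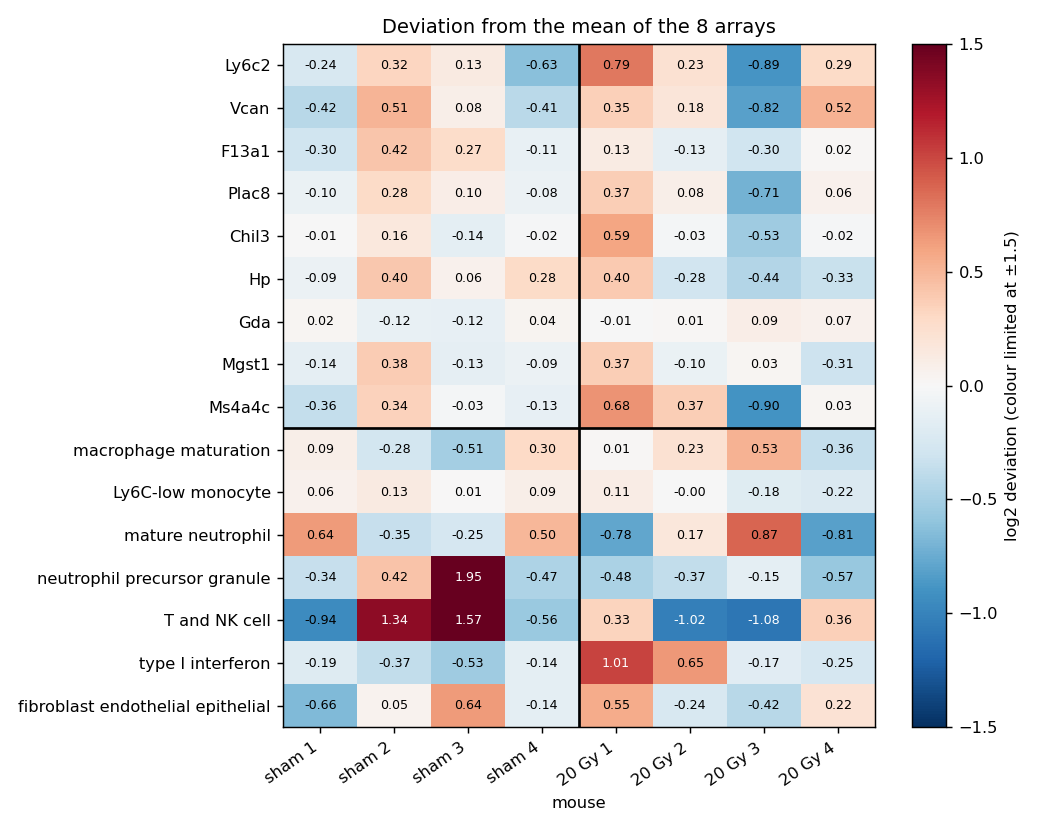
Deviation of each gene (rows) in each mouse (columns) from that gene's mean over the 8 arrays, in log2 units, with colours limited at ±1.5; the rows under the line are the means of 7 marker lists. Sham mouse 2 and irradiated mouse 1 are above the mean for 8 of the 9 genes, irradiated mouse 3 is below it for 7, and the Gda row is near 0 throughout.

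Across the 8 mice, 28 of the 36 pairs of members had a positive Pearson correlation, and the 8 negative ones were the 8 pairs with Gda (r from −0.843 to −0.329). By a two-sided exact permutation test with Benjamini-Hochberg adjustment over the 36 pairs, 10 pairs passed 0.05 with Pearson's r and 0 with Spearman's rho. The firmest was Plac8 with Ms4a4c (r = 0.944, exact p = 0.000372, adjusted 0.00714; rho = 0.881, exact p = 0.00724, adjusted 0.0652; n = 8), and r was 0.815 without irradiated mice 1 and 3, the arrays farthest from the median of Plac8. Ly6c2 correlated with Plac8 (r = 0.898, exact p = 0.000397, adjusted 0.00714; rho = 0.881, adjusted 0.0652), Vcan (r = 0.908, exact p = 0.00226, adjusted 0.0189; rho = 0.881, adjusted 0.0652) and Ms4a4c (r = 0.902, exact p = 0.00263, adjusted 0.0189; rho = 0.905, adjusted 0.0652). Without sham mouse 4 and irradiated mouse 3, the farthest from the median of Ly6c2, these r were 0.913, 0.741 and 0.922. The other positive pairs past 0.05 were Vcan with Plac8 (r = 0.867) and Ms4a4c (r = 0.847), and Chil3 with Ly6c2 (r = 0.814), Plac8 (r = 0.873) and Ms4a4c (r = 0.876). Without their 2 farthest arrays, r was 0.684 and 0.534 for the Vcan pairs, 0.800 for Chil3 with Ly6c2, and 0.489 and 0.413 for Chil3 with Plac8 and Ms4a4c, the last 2 resting on irradiated mice 1 and 3. F13a1 and Gda were opposed (r = −0.843, exact p = 0.0101, adjusted 0.044; rho = −0.762, adjusted 0.138), with r of −0.431 without sham mice 2 and 3, so that relation rests on those mice.

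The number of pairs past the threshold depended on single mice. It was 0 without irradiated mouse 3, 3 without sham mouse 1 or 4, 4 without sham mouse 2 or irradiated mouse 1, 6 without irradiated mouse 2, 7 without irradiated mouse 4 and 8 without sham mouse 3. Without irradiated mouse 3 the correlations themselves were 0.838 for Ly6c2 with Vcan, 0.890 with Plac8 and 0.824 with Ms4a4c, and 0.902 for Plac8 with Ms4a4c, each at an adjusted p of 0.146 in the exact permutation test. With array medians subtracted, 6 pairs passed.

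**Figure D4:**
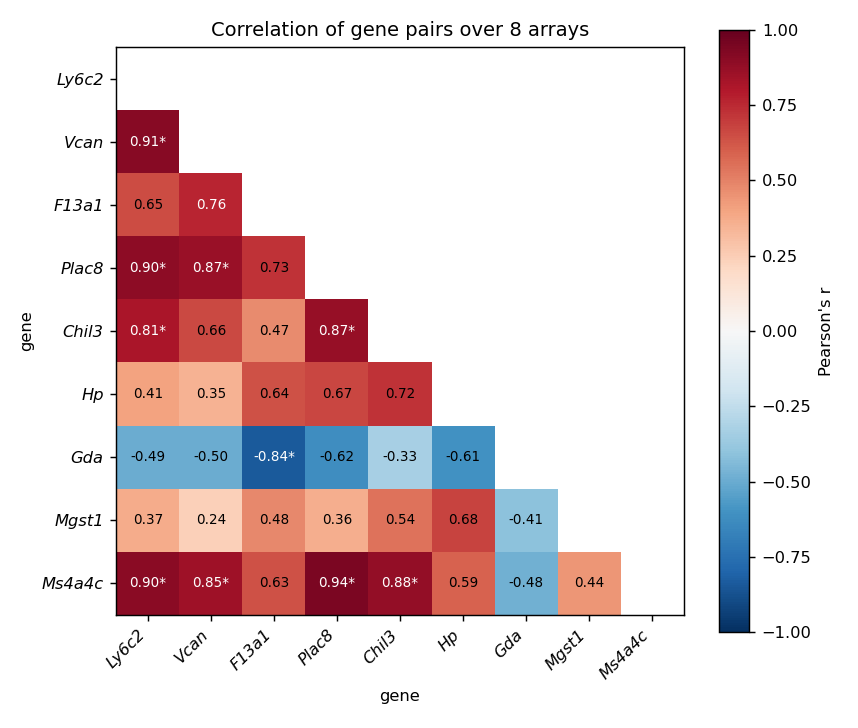
Pearson's r over the 8 mice for each of the 36 pairs of the 9 genes; an asterisk marks an adjusted exact permutation p under 0.05. The 10 marked pairs join Ly6c2, Vcan, Plac8, Chil3 and Ms4a4c, except for F13a1 with Gda, and the Gda row and column are negative throughout.

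The genes whose levels across the 8 mice were most like those of 3 members were listed from 12301 genes with a mean over 4.70, the median of all probe sets. Closest to Ly6c2 were Ly6a2, another gene of the Ly6 family (r = 0.987), Srpr, which encodes a subunit of the signal recognition particle receptor (r = 0.963), and the choline transporter-like gene Slc44a2 (r = 0.945). Ly6a2 stood at 8.83, 9.50, 9.26 and 8.11 in the sham group and 10.04, 9.16, 8.03 and 9.26 in the irradiated group, with irradiated mice 1 and 3 at the ends as for Ly6c2. Whether the probes separate Ly6a2 from Ly6c2 was not tested. Closest to Vcan were Ccdc88c (r = 0.954), Tppp3 (r = 0.948) and the small RNA gene Scarna17 (r = 0.948). Closest to Chil3 were 4933406J10Rik (r = 0.991), the DNA repair helicase gene Ercc2 (r = 0.979) and Fcf1 (r = 0.952). These are descriptions over 8 arrays, without a test, and were picked as the highest of all genes searched.

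Relatives of the members in the same gene families were given whatever their result, and 18 of 19 were measured, 10 higher and 8 lower in irradiated mice, with 0 passing at an unadjusted or adjusted p under 0.05 in limma and a median difference of 0.04. Ly6c1, the close relative of Ly6c2, was near the floor of the arrays with means of 2.61 ± 0.16 (sham) and 2.88 ± 0.23 (irradiated; SD, n = 4 each), and Chil4, the close relative of Chil3, at 2.94 ± 0.06 and 3.08 ± 0.35. Probes may not separate such similar genes. Ly6i, also of the Ly6 family, repeated the profile of Ly6c2 at the ends. It stood at 8.55, 9.70, 8.97 and 8.97 in the sham group and 9.89, 9.07, 7.42 and 8.79 in the irradiated group, highest in irradiated mouse 1 and lowest in irradiated mouse 3. Ly6e stood at 12.26 ± 0.06 and 12.32 ± 0.28. The MS4A relatives Ms4a6b and Ms4a6d differed by 0.07 and 0.06 and Ms4a4d by 0.53 ± 0.32 (SE), while Ms4a6c had means of 10.64 and 10.63 and Ms4a4a of 9.96 and 10.06. Ms4a4b, which T cells express, was high in sham mice 2 (5.80) and 3 (6.35) and irradiated mouse 1 (5.71). Mgst3 differed by −0.35 ± 0.16 (SE), Mgst2 by 0.03 ± 0.41 and Chil1 by −0.48 ± 0.67. Of the hyaluronan-binding relatives of Vcan, Bcan, Acan and Hapln3 had group means of 3.81 to 4.83 and Ncan of 4.69 and 4.83, close to or under the median of all probe sets.

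Other genes of Ly6C-high monocytes did not pass the test either. Of 25 such genes listed (Ly6i is also counted among the relatives), 23 were measured, 8 higher and 15 lower in irradiated mice, with 0 passing at an unadjusted or adjusted p under 0.05 in limma, 0 without overlap and a median difference of −0.04. The smallest p on the higher side belonged to the chemokine gene Ccl9 (0.24 ± 0.14, SE), the matrix protein gene Thbs1 (0.19 ± 0.11) and the surface receptor gene Cd93 (0.28 ± 0.20). On the lower side they belonged to Emb (−0.16 ± 0.11), which encodes the adhesion protein embigin, Sirpb1c (−0.17 ± 0.15) and Ccr2 (−0.12 ± 0.11), the receptor gene for monocyte exit from the marrow. Ccr2 was 11.64, 11.64, 11.52 and 11.51 in the sham group and 11.56, 11.52, 11.20 and 11.54 in the irradiated group, lowest again in irradiated mouse 3. The mean of the wider list ran from 10.56 to 10.82 in sham and from 10.53 to 10.85 in irradiated mice, a narrower span than that of the 9 genes.

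As a list mean, macrophage maturation markers were highest in the mouse with the least of 7 members, though single markers such as Siglec1 were highest in other mice. Of 25 listed, 23 were measured, 17 higher and 6 lower in irradiated mice. Of these, 2 passed at an unadjusted p under 0.05 in limma, the adhesion molecule gene Vcam1 and the sialic acid receptor gene Siglec1, and 0 passed adjusted. The list mean was 9.38, 9.01, 8.78 and 9.59 in the sham group and 9.31, 9.52, 9.82 and 8.93 in the irradiated group, highest in irradiated mouse 3 and lowest in sham mouse 3. Across the 8 mice its correlation was negative with 7 members and positive with Gda and Mgst1. In a two-sided exact permutation test over 9 relations, added after seeing the data, 0 passed after adjustment with either coefficient. F13a1 had r = −0.783 (exact p = 0.025, adjusted 0.146; rho = −0.786, adjusted 0.207) and Vcan r = −0.744 (exact p = 0.0395, adjusted 0.146; rho = −0.667, adjusted 0.207). Ly6c2 had r = −0.634, Plac8 −0.650 and Gda 0.686. Without sham mouse 3 and irradiated mouse 3, the farthest from the list's median, r was −0.640 for F13a1, −0.765 for Vcan, −0.511 for Ly6c2, −0.426 for Plac8 and 0.289 for Gda. Without irradiated mouse 4 the Gda relation had r = 0.972 and passed (adjusted p = 0.00714, exact permutation test).

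**Figure D5:**
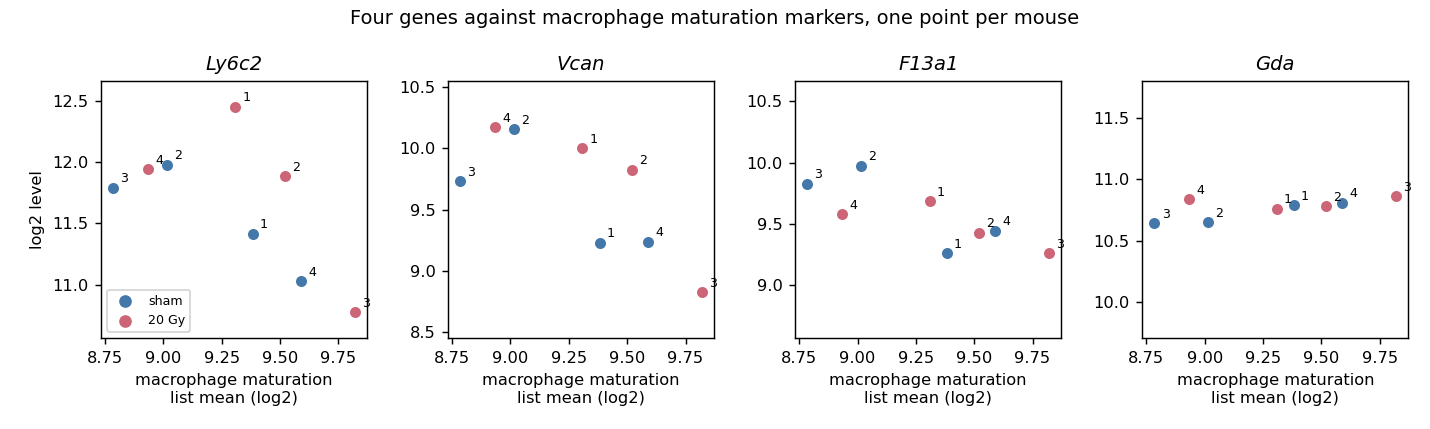
Log2 level of Ly6c2, Vcan, F13a1 and Gda (vertical axes of the same span) against the mean log2 level of the 23 measured macrophage maturation genes, 1 point per mouse with its number, sham and irradiated (20 Gy) in different colours. Irradiated mouse 3, with the highest list mean of 9.82, has the lowest Ly6c2, Vcan and F13a1 and the highest Gda, and Gda spans 0.22 in all.

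Markers of other cells also varied from mouse to mouse, and their part in the members' levels was not tested. Mature neutrophil markers (14 of 14 measured, 9 lower) had list means of 8.95, 7.95, 8.05 and 8.80 in the sham group and 7.53, 8.47, 9.18 and 7.49 in the irradiated group. They were highest in irradiated mouse 3, where Chil3, Hp and Plac8 were lowest. Mgst1, also named above as transcribed in neutrophils or their precursors, was 8.27 in that mouse, above its mean of 8.24 over the 8 arrays. S100a8 and S100a9, abundant calprotectin genes that monocytes also express, had the smallest p of the list. S100a8 lay between 9.77 and 12.31 and S100a9 between 9.87 and 12.10 over the 8 arrays, with differences of −0.86 ± 0.51 and −0.81 ± 0.48 (SE), and both were lowest in irradiated mouse 4. Ly6g, the surface marker, lay between 3.63 and 5.39, and it and 1 other gene of the 14 had means under the median of all probe sets. Markers of neutrophil precursors (14 of 14 measured, 13 lower) reached list means of 6.12 and 7.64 in sham mice 2 and 3. On the other 6 arrays these means lay between 5.13 and 5.55. Of the 14 genes, 2, the granule genes Prtn3 and Fcnb, were lower at an unadjusted p under 0.05 in limma and 0 at an adjusted one. Fcnb was 1 of 5 genes of this list with means under the median of all probe sets.

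Sham mice 2 and 3 had the highest means of the lymphoid lists as well. Irradiated mice 1 and 4 came next for T and NK cell and for B and plasma cell markers. T and NK cell markers (16 of 18 measured, 15 lower) had means of 5.77, 8.05, 8.28 and 6.15 in the sham group and 7.04, 5.69, 5.63 and 7.07 in the irradiated group. B and plasma cell markers (11 of 12 measured, 9 lower) had means of 5.61, 6.06, 6.27 and 5.41, then 5.83, 5.36, 5.05 and 5.64. Plasmacytoid dendritic cell markers (9 of 10 measured, 6 lower) had means of 4.91, 5.55, 5.93 and 5.04, then 5.04, 4.99, 5.05 and 5.24. All of these means were highest in sham mice 2 and 3. By limma, 2 T and NK cell genes (Il7r and Klrd1) and 1 B cell gene (Blk) were lower at an unadjusted p under 0.05, and 0 passed adjusted. Cr2, a B cell complement receptor gene, differed by −0.52 ± 0.26 (SE), and the plasmacytoid cell genes Klk1 and Siglech by −1.45 ± 0.73 and −0.65 ± 0.35. Sham mouse 3 had the highest mean of each lymphoid list and of the neutrophil precursor list. It was the lowest sham mouse for Chil3 (11.24) and stood at 8.10 for Mgst1, 10.36 for Hp and 11.47 for Plac8. A relation of these levels with the lists was not tested. Sham mice 2 and 3 were the highest for F13a1, and sham mouse 2 for Mgst1 and Hp. With these 2 mice left out together the difference was 0.54 for Ly6c2, 0.47 for Vcan, 0.29 for Ms4a4c, 0.13 for F13a1, 0.11 for Mgst1, 0.04 for Plac8, 0.02 for Chil3, 0.0092 for Gda and −0.26 for Hp. With the neutrophil precursor mean as a covariate it was 0.33 for Ly6c2, 0.22 for Vcan, 0.10 for Ms4a4c, 0.04 for Gda, −0.0047 for F13a1, −0.0066 for Mgst1, −0.07 for Chil3, −0.08 for Plac8 and −0.36 for Hp. No member passed the adjusted threshold in limma in either setting.

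Type I interferon response genes (24 of 28 measured, all 24 higher, 6 at an unadjusted and 0 at an adjusted p under 0.05 in limma) had means of 7.80 to 8.19 in sham mice and of 9.35, 8.99, 8.16 and 8.08 in irradiated mice 1 to 4. The mice with the most Ms4a4c, irradiated 1 and 2, were also those with the highest interferon means, and irradiated 1 had the most Ly6c2. Irradiated mouse 3, with an interferon mean of 8.16, had the least Ly6c2 (10.77) and Ms4a4c (8.93) of all mice. Sham mouse 4 had the highest sham interferon mean (8.19) and the lowest sham Ly6c2 (11.03), and sham mouse 2 had 7.96 and 11.98. Irradiated mouse 4, with the lowest irradiated interferon mean (8.08), had a Ly6c2 of 11.94. The relation was not tested. Ifi204 and Mx1, the list's genes with the smallest p, differed by 0.43 ± 0.13 and 1.32 ± 0.42 (SE). Fibroblast, endothelial and epithelial markers (15 of 15 measured, 7 lower) had means of 5.73, 6.45, 7.04 and 6.25 in the sham group and 6.95, 6.16, 5.98 and 6.61 in the irradiated group. Kdr, an endothelial receptor gene, differed by 0.72 ± 0.61 (SE) and the epithelial gene Epcam by −0.23 ± 0.22. Platelet and megakaryocyte markers (7 of 10 measured, 3 lower) lay between 4.71 and 5.40 in sham and between 4.87 and 5.39 in irradiated mice, with Treml1 differing by −0.23 ± 0.15 (SE) and Ppbp by 0.70 ± 0.73. Means of Ly6C-low monocyte markers (14 of 14 measured, 10 lower) were 8.13 to 8.25 and 7.90 to 8.23, with the chemokine receptor gene Cx3cr1 lower at an unadjusted p under 0.05 in limma and Spn, which encodes CD43, differing by −0.28 ± 0.14 (SE). None of the genes of these lists passed adjusted.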

How the data were processed

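Expression was measured on 8 Affymetrix arrays, each of RNA from 1 mouse (4 sham, 4 irradiated; groups and mouse numbers from the sample titles). Per the labels' protocols, 25 ng of total RNA was amplified linearly by ribo-SPIA at 1 temperature, which can change relative levels between transcripts but was the same for all samples. The deposited values were made by the authors with RMA and Partek, per the submitters' processing notes, and are read as log2 from their range; the sources used here give no further settings and no array batches. Of 34365 probe sets, 23521 have 1 symbol in the platform annotation, 1814 several and 9030 none. Keeping the row with the highest mean per symbol left 22180 genes, with array medians of 4.68 to 4.73 and correlations between arrays of 0.976 to 0.988. No detection calls were used.

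The irradiated and sham groups were tested two-sided with lmFit and eBayes of limma 3.58.1 (R 4.3.3), with Benjamini-Hochberg adjustment over all genes; the procedure was checked on simulated data. Correlations over the 8 arrays used all pairings (exact permutation, Python 3.11.15). Promoters are RefSeq windows (GRCm38.p6). Figures were drawn with matplotlib 3.10.9. The members, lists and tests were chosen with earlier results of these data known. The text names all members and their family relatives, the 3 genes with the smallest p per direction of the wider monocyte list, the 2 with the smallest p of every other list, and the 3 genes most like Ly6c2, Vcan and Chil3. Ly6g, named also as a neutrophil marker, is among the relatives. Alternatives covered scaling (quantile normalization, array medians subtracted), the features tested (dim genes left out, probe sets averaged, every probe set), the model (robust and trended variance, weights per array, the mouse number as a block), a neutrophil precursor covariate, sham mice 2 and 3 left out, and each array left out. Alternatives for the correlations, and the relations with macrophage markers, were added after seeing the data.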

Additional observations from a re-analysis of the deposited data

Results flagged for a closer look

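In 63 genes checked in both groups (126 groups of 4 mice), 8 held a mouse farther from the other 3 than Dixon's 95% limit, where chance flags about 1 in 20. Of the 9 members only Mgst1 was among them, with sham mouse 2 at 8.62 against 8.10 to 8.15 in the other sham mice. Irradiated mouse 3, the lowest mouse for 7 members, stood below the other irradiated mice at 11.20 for Ccr2, 11.90 for Ly6e and 5.55 for Ccdc88c. Sham mouse 3 stood below the other sham mice at 11.04 for Ccl9, 6.997 for Cd93 and 5.38 for Ercc2, and sham mouse 4 at 8.56 for Slc44a2. Ccdc88c, Ercc2 and Slc44a2 were picked for their likeness to Vcan, Chil3 and Ly6c2. Their low mice are therefore not independent of those members.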

How the results depend on the processing

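Every member kept an adjusted p over 0.05 in limma under all 18 alternatives. The differences of Gda and Hp kept their sign in all 18. With single mice left out, the differences ranged from -0.020 to 0.54 for Ly6c2, -0.037 to 0.41 for Vcan, -0.26 to -0.02 for F13a1, -0.24 to 0.12 for Plac8, -0.19 to 0.19 for Chil3, -0.51 to -0.24 for Hp, 0.06 to 0.11 for Gda, -0.13 to 0.12 for Mgst1 and -0.12 to 0.40 for Ms4a4c. Differences near 0 changed sign in other settings, and the cause was not tested. Mgst1 was 0.039 after quantile normalization, 0.0040 with array medians subtracted and 0.11 without sham mice 2 and 3. Without those mice F13a1 was 0.13 and Plac8 0.043. Chil3 was -0.00020 with array weights and -0.069 with the neutrophil precursor covariate. In that setting F13a1 moved from -0.14 to -0.0047, Ly6c2 from 0.21 to 0.33 and Vcan from 0.12 to 0.22. Over all genes 0 to 1 passed with single mice left out (1 without irradiated mouse 1), and 0 in the other settings. Pairs of members past the threshold numbered 10, 6 with array medians subtracted, and 0 to 8 with single mice left out, where fewer arrays also raise the smallest p; relations with macrophage markers numbered 0 to 1. Same-numbered mice did not deviate together (r from -0.42 to -0.27, and 0 of 8 arrays correlated best with their own number). The check showed no pairing by number, but it cannot exclude that same-numbered mice were handled together. With the mouse number as a replicate block 0 genes passed in limma, at a smallest adjusted p of 0.957, and 1065 passed unadjusted against 1347. The difference of Ly6c2 there was 0.21, at an adjusted p of 0.970. Signal over background was not tested, and all 9 members had means over 4.70, the median of all probe sets.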
